A study of Mus musculus with 8 samples.

Results

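β-cells from mouse islets exposed to IL-1β and IFN-γ were compared with β-cells from untreated islets by single-cell RNA-sequencing. A barcode counted as a β-cell when it held 200 to 5500 genes (replicate 1) or 200 to 6500 genes (replicate 2), at most 10% mitochondrial UMIs and at least 5000 UMIs, where a UMI (unique molecular identifier) stands for a captured mRNA molecule. Its *Ins1* and *Ins2* UMIs also had to make up at least 10% of all UMIs and at least 95% of the UMIs of the hormone genes *Ins1*, *Ins2*, *Gcg*, *Sst*, *Ppy* and *Pyy*. This rule kept 3698 of the 9296 barcodes in the 4 libraries, with 1622 (replicate 1) and 536 (replicate 2) untreated β-cells and 1087 and 453 cytokine-treated β-cells. Over all 8 libraries of the series it kept 5940 of 17426 barcodes. The islets were isolated from male C57BL6/J mice (C57BL/6 in the labels) of 12 to 16 weeks of age. For each replicate the islets of 10 mice were pooled and divided over the conditions, so a library stands for a pool and not for an animal. Untreated islets received no addition, and cytokine-treated islets were kept for 18 h in IL-1β (10 U/mL) plus IFN-γ (150 U/mL). The islets were intact during the treatment, so the β-cells were exposed beside the other islet cells. The series also holds libraries of islets given the nitric oxide synthase inhibitor NMMA, with and without the cytokines, which entered the statistical fit and are not described here.

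β-cells make, store and secrete insulin. They sense glucose through its uptake and oxidation, which closes ATP-sensitive potassium channels, opens calcium channels and releases insulin granules. IL-1β, made mainly by macrophages, acts through the adaptor MyD88 on NF-κB, whereas IFN-γ, made by T-cells and natural killer cells, acts through JAK kinases, and the pair induce the inducible nitric oxide synthase in rodent β-cells. Both cytokines are produced by immune cells that enter the islet in autoimmune diabetes, which is why they are used on isolated islets.

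The label of the cells was checked against their markers. The cells were chosen by their insulin, other hormone and mitochondrial UMIs, so these genes are given as a description only. *Ins1* was at 123000 and 111000 CPM (counts per 1000000 UMIs after TMM normalization, replicates 1 and 2) untreated and at 82800 and 91000 CPM with cytokines. *Ins2* was at 288000 and 277000 CPM untreated and at 312000 and 344000 CPM with cytokines. The median insulin share of a cell's UMIs was 42.1% and 39.7% untreated and 33.6% and 37.4% with cytokines, and the median mitochondrial share, also limited by the rule, was 4.78% and 4.08% against 3.58% and 3.14%. Just inside the insulin threshold, with 10 to 12% of UMIs from insulin, lay 7 untreated and 15 cytokine-treated cells, and just outside it, with 8 to 10%, lay 6 and 18 barcodes. Just below the mitochondrial limit, at 8 to 10%, lay 143 untreated and 35 cytokine-treated barcodes, and just above it, at 10 to 12%, lay 71 and 18. The granule peptide gene *Iapp*, which the rule did not use, took 54700 and 40000 raw CPM (before TMM normalization) untreated and 53700 and 34300 with cytokines. On that raw scale *Ins2* took 297000 and 294000 untreated and 277000 and 307000 with cytokines, so its direction in replicate 1 depended on the scale. *Ins1* took 127000 and 118000 raw CPM untreated and 73700 and 81200 with cytokines. *Iapp* was not called (log2 change 0.12), but the other β-cell markers checked outside the rule were all called lower. Their log2 changes were -3.70 for *Mafa*, -3.48 for *Slc2a2*, -2.61 for *Ucn3*, -2.58 for *Pdx1*, -1.82 for *G6pc2*, -1.03 for *Nkx6-1* and -0.86 for *Trpm5*.

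Marker genes of other islet hormone cells were present in the sums, and some were lower with cytokines. The 8 α-cell genes, of which the rule limited *Gcg* and *Pyy*, summed to 1010 and 1110 raw CPM untreated and to 352 and 700 with cytokines, with *Ttr*, *Slc7a2* and *Tmem27* called lower. The 6 δ-cell genes summed to 247 and 220 raw CPM untreated and to 143 and 144 with cytokines, and the 4 PP-cell genes to 326 and 404 and to 99.1 and 257. The part of these cells in the results was not tested. The 9 ductal genes summed to 357 and 362 raw CPM untreated and to 504 and 438 with cytokines, most of it from *Krt7* and *Epcam*. Markers of leukocytes and vessels stood at lower levels. The leukocyte gene *Ptprc* stayed at or below 0.144 raw CPM in all 4 libraries. The 12 macrophage genes summed to 75.4 and 82.3 raw CPM untreated and to 126 and 70.8 with cytokines, of which *C1qa* alone gave 68.8 and 43.5 against 107 and 46.9. The 10 endothelial genes summed to 6.96 and 6.3 raw CPM untreated and to 2.0 and 2.89 with cytokines. The 12 acinar genes summed to 55.9 and 0.199 untreated and to 63.0 and 540 with cytokines, the last in replicate 2, and none of the 10 acinar genes tested was called. Libraries shared at most 5 barcodes, and 1 β-cell barcode was common to the untreated libraries of both replicates. The summed β-cells held 14552533 to 34665418 UMIs a library, and the median β-cell 20584 to 29740. Cells thinned to 5000 UMIs showed a median of 1485 and 1518 genes untreated and 1484 and 1429 with cytokines.

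Cytokines changed many genes of these cells, in both directions. Raw UMIs were summed per library, and of 12701 genes tested with edgeR, 3000 (23.6%) were higher and 2820 (22.2%) lower with cytokines at a Benjamini-Hochberg adjusted p of at most 0.05. With a change of at least 2-fold required as well, 1244 genes (9.79%) were higher and 1458 (11.5%) lower. The large increases outnumbered the large decreases: 500 genes rose and 367 fell by at least 4-fold, and 161 rose and 17 fell by at least 16-fold. The replicates moved in the same direction for 87.0% of the genes tested, as a description across genes, which are not independent. Without untreated replicate 1 the counts were 1928 higher and 1662 lower, and without cytokine replicate 1 they were 1986 and 1755. With the replicate number as a block, 3997 genes (31.5%) were higher and 3788 (29.8%) lower. This block is called the pool below. It also separates the replicates by version of the counting software and by gene list, and these cannot be told apart from the pool. Scaling by total UMIs instead gave a median log2 change of -0.233 over all genes, against -0.0031 with TMM normalization, and under it 1923 (15.1%) were higher and 3973 (31.3%) lower, so 32.6% of the calls were increases in place of 51.5%. Values in CPM below are TMM-normalized unless called raw, and pairs of values are replicate 1 and replicate 2 (n = 2 libraries a condition). List counts are read against the 23.6% and 22.2% above. Those with the block are read against 31.5% and 29.8%, and those with total UMI scaling against 15.1% and 31.3%. A gene silent in untreated cells passed the filter on low counts only through the libraries in which it was high, so the list counts are descriptions. Many named genes were chosen as called genes with 1 direction in both replicates. Statements below that the conditions did not overlap are favoured by that choice and are descriptions too.

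**Figure D1:**
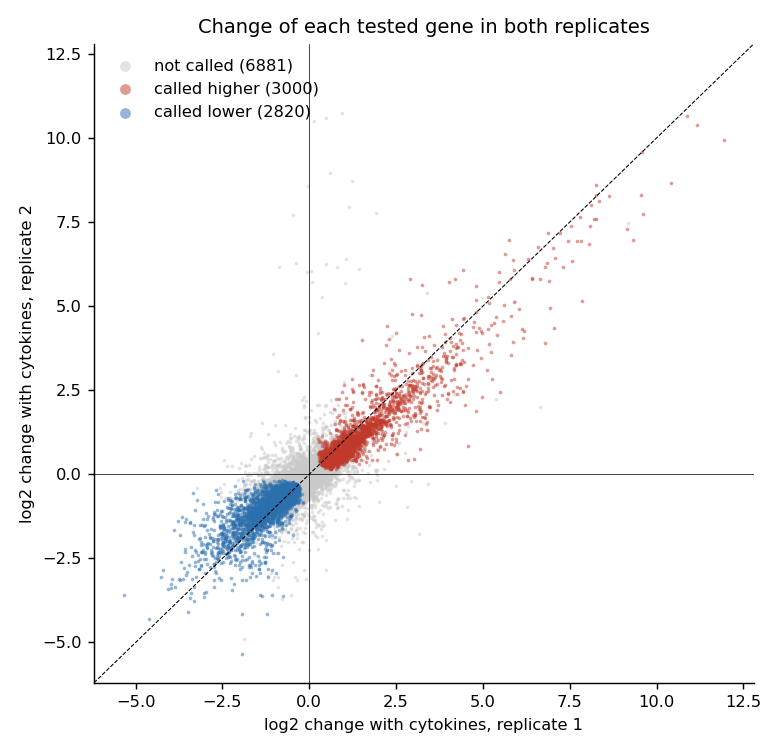
Log2 change with cytokines of each of the 12701 tested genes in replicate 1 (horizontal axis) and replicate 2 (vertical axis), with genes called higher in red, called lower in blue and not called in grey. The 3000 red and 2820 blue points lie along the diagonal, and the increases reach further from the origin than the decreases. Values are differences of log2 CPM with a prior count of 2, and the grey points high in replicate 2 only include the acinar genes *Ctrb1*, *Prss2* and *Try5*.

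Receptor genes of the cytokines moved in opposite ways. The IFN-γ receptor genes rose: *Ifngr1* went from 8.02 and 10.6 to 17.1 and 15.5 CPM (log2 change 0.82, SE 0.195, adjusted p = 0.00827) and *Ifngr2* from 4.88 and 4.56 to 27.3 and 26.4 CPM (log2 change 2.50, SE 0.227, adjusted p = 5.93e-05). In contrast the IL-1 receptor *Il1r1* fell from 224 and 193 to 85.8 and 92.8 CPM (log2 change -1.22, SE 0.164, adjusted p = 0.000434). For each of these receptors the untreated and the cytokine libraries did not overlap. The call of *Ifngr1* was lost without untreated replicate 1 or cytokine replicate 1 (adjusted p = 0.0715 and 0.0504) and with total UMI scaling (adjusted p = 0.0514). *Il1rn*, a secreted antagonist of that receptor, rose from 0.0841 and 0.375 to 1.42 and 1.47 CPM (adjusted p = 0.00498, and 0.0506 without untreated replicate 1), and *Irak3*, a kinase-like protein that restrains the pathway, from 0.364 and 0.187 to 1.73 and 1.93 CPM. The adaptor *Myd88* also rose, with a log2 change of 1.54 (adjusted p = 0.000469). Of 25 tested genes of the IL-1 receptor pathway, 12 were higher and 2 lower.

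Downstream of IFN-γ, the transcription factor *Stat2* rose from 13.4 and 12.1 to 116 and 75.2 CPM (log2 change 2.90, SE 0.2, adjusted p = 1.59e-05). *Irf1*, a factor of the IRF family, rose from 19.2 and 19.3 to 180 and 180 CPM (log2 change 3.23, SE 0.132, adjusted p = 1.02e-06). For these genes the conditions did not overlap. *Irf8* rose from 0.0561 and 0.749 to 21 and 17.2 CPM, *Irf9* from 9.67 and 11.7 to 64.3 and 51.6 CPM, and *Batf2* had 1 UMI untreated and 212 with cytokines, a ratio of 286 (95% counting interval 50.8 to 11300). Feedback inhibitors rose as well: *Socs1*, which blocks JAK kinases, went from 0.953 and 0.749 to 37.5 and 32.8 CPM (log2 change 5.32, SE 0.232, adjusted p = 1.28e-06), while *Socs3* changed less, from 13.8 and 10.4 to 18.8 and 20.2 CPM (log2 change 0.67, SE 0.231, adjusted p = 0.0404), and lost the call without untreated replicate 2, cytokine replicate 1 or cytokine replicate 2 (adjusted p = 0.22, 0.112 and 0.133) and with total UMI scaling (adjusted p = 0.0975). *Socs2*, a relative that restrains growth hormone and prolactin signalling, fell from 19.7 and 17.6 to 5.04 and 5.56 CPM (log2 change -1.82, SE 0.152, adjusted p = 3.95e-05). Of 30 receptor, JAK-STAT and SOCS genes tested 15 were higher and 2 lower, and of 14 interferon regulatory factors and partners 10 were higher and 1 lower.

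Of the NF-κB subunit and inhibitor genes, 23 of 27 tested members were higher and 0 lower. The inhibitor *Nfkbia* rose from 44.2 and 35.7 to 342 and 224 CPM (log2 change 2.82, SE 0.266, adjusted p = 9.89e-05), the ubiquitin-editing *Tnfaip3* from 1.21 and 1.37 to 22.9 and 16.4 CPM (log2 change 3.94, SE 0.214, adjusted p = 5.74e-06), and *Zc3h12a*, a nuclease that destroys inflammatory mRNAs, from 0.421 and 0.5 to 15.9 and 11.4 CPM (log2 change 4.91, SE 0.276, adjusted p = 6.38e-06). All 3 were far above their untreated level in both replicates. Among the subunits *Nfkb1* rose by 1.36 and *Nfkb2* by 2.85 on the log2 scale.

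Promoter sequence is shown for 8 genes of these groups and the groups below, to let the recognition letters of the signalling factors be seen beside the changes. Each run is the 150 bases before the transcription start in the RefSeq annotation of GRCm38.p6, given 5′ to 3′ on the gene's strand. Capitals mark the letters matched on either strand: GAS (gamma-activated sequence, named for its role in the IFN-γ response), written TTCNNNGAA, in Igtp, Irf1 and Hamp; the interferon-stimulated response element (ISRE, bound by IRF factors), in Irgm1, Igtp, Socs1 and B2m; the κB site of NF-κB, in B2m and Nfkbia; and the C/EBP-ATF response element (bound by ATF4), written TGATGNAAN, in Atf3. In Irgm1 and in Socs1, 2 overlapping ISRE matches run together. Each gene shown holds a match, and each was searched for only some of these elements. An unmarked stretch may therefore hold another element, or a variant that these letters miss.
Irf1: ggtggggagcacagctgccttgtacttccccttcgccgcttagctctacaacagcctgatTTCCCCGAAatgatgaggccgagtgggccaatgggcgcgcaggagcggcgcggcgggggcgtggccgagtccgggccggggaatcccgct
Socs1: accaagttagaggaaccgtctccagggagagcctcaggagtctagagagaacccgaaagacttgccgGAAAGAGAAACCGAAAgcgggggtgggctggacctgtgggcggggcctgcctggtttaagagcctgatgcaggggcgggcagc
Irgm1: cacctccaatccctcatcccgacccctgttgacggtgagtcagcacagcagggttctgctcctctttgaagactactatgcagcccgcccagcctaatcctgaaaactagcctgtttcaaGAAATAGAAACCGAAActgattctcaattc
Igtp: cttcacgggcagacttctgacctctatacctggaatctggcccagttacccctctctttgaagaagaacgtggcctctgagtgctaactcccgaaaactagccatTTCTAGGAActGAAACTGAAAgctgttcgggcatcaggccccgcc
Hamp: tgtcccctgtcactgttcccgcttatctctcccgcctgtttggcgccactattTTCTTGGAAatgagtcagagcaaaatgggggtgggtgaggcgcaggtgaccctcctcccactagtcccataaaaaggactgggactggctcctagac
B2m: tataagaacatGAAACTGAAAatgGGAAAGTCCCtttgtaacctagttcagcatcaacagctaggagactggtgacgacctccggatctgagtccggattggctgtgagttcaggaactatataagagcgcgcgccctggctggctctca
Nfkbia: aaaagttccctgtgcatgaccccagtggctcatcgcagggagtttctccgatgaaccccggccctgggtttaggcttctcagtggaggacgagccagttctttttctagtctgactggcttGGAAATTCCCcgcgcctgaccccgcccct
Atf3: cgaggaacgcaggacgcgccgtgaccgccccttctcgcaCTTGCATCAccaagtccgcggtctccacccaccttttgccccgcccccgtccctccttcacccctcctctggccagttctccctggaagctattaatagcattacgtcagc
These runs lie at chr11:53769864-53770013 (*Irf1*, plus strand), chr16:10785537-10785686 (*Socs1*, minus), chr11:48871421-48871570 (*Irgm1*, minus), chr11:58199406-58199555 (*Igtp*, plus), chr7:30944030-30944179 (*Hamp*, minus), chr2:122147537-122147686 (*B2m*, plus), chr12:55492648-55492797 (*Nfkbia*, minus) and chr1:191183334-191183483 (*Atf3*, minus). Of the 9977 promoters matched to tested genes, each read from 250 bases before to 50 bases after the start, 6.8% held a GAS match, 3.01% an ISRE match, 1.36% a κB match and 2.08% a C/EBP-ATF match. The matched promoters covered 78.6% of the tested genes, under the 80% set for a comparison, so no share among changed genes is compared, and a match is a description of letters and not of a bound site.

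Secreted chemokines went from near silence to abundance. *Ccl2*, which draws monocytes, went from 0.0561 and 0.25 to 621 and 349 CPM (log2 change 11.90, SE 0.825, adjusted p = 0.000188), and *Cxcl10*, which draws T-cells, from 2.33 and 1.69 to 266 and 129 CPM (log2 change 6.59, SE 0.859, adjusted p = 0.00326). *Cxcl9* had 0 UMIs untreated and 7717 with cytokines, at least 3470-fold higher against a floor of 3 UMIs over the untreated group. The neutrophil chemokine *Cxcl1* had 3 UMIs untreated and 2077 with cytokines, a ratio of 933 (95% counting interval 319 to 4530). The cytokine library of replicate 1 held more of *Ccl2*, *Cxcl9* and *Cxcl10* than that of replicate 2, and *Cxcl9* missed the threshold when any of the 4 libraries was left out (adjusted p = 0.0648 without untreated replicate 1, 0.0501 without untreated replicate 2, 0.147 without cytokine replicate 1 and 0.125 without cytokine replicate 2). Of 23 chemokine and cytokine genes tested, 15 were higher and 0 lower, and together they took 0.0199% and 0.0283% of UMIs untreated and 0.154% and 0.102% with cytokines. Per cell thinned to 5000 UMIs, the median (5th to 95th percentile) was 1 (0 to 3) and 1 (0 to 4) UMIs untreated and 4 (0 to 27) and 3 (0 to 15) UMIs with cytokines, so the cells varied widely around a low median.

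Acute-phase, complement and secreted defence genes took a far larger share of the UMIs with cytokines. *Lcn2*, which binds bacterial iron carriers, rose from 34.7 and 11.2 to 751 and 758 CPM (log2 change 5.03, SE 0.618, adjusted p = 0.0018). *Saa3*, a serum amyloid A, went from 0.0841 and 0.125 to 51.2 and 58.3 CPM (log2 change 9.04, SE 0.7, adjusted p = 0.000186), and *C1ra*, a protease of the complement cascade, from 0.589 and 0.874 to 82.3 and 52.4 CPM (log2 change 6.59, SE 0.478, adjusted p = 9.89e-05). For *Lcn2* the untreated libraries differed from each other by a wider ratio than the cytokine libraries did, and the conditions did not overlap. With the 4 libraries alone and the pool as a block its log2 change was 5.16 and its adjusted p 0.1. *S100a9*, a calcium-binding protein best known from neutrophils, had 0 UMIs untreated and 1017 with cytokines (at least 457-fold higher), and *Serpina3g*, a protease inhibitor, 0 UMIs untreated and 334 with cytokines (at least 150-fold higher). The call of *S100a9* was lost without untreated replicate 1, cytokine replicate 1 or cytokine replicate 2 (adjusted p = 0.057, 0.125 and 0.0974), and both missed the threshold with barcodes carrying 3 or more UMIs of other cell types left out, which kept 730 and 304 untreated and 497 and 226 cytokine-treated cells (adjusted p = 0.27 for *S100a9* and 0.0931 for *Serpina3g*). The list as a whole took 0.0132% and 0.0142% of UMIs untreated and 0.133% and 0.149% with cytokines, with 19 of 28 tested members higher and 1 lower.

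Of the adhesion and lymphocyte-restraining molecules, 14 of 21 tested were higher and 1 lower. *Icam1*, the ligand of a leukocyte integrin, went from 0.224 and 0.874 to 257 and 209 CPM (log2 change 8.96, SE 0.541, adjusted p = 5.23e-05). The checkpoint ligand *Cd274* (PD-L1) rose from 4.26 and 6.43 to 261 and 227 CPM (log2 change 5.53, SE 0.231, adjusted p = 1.11e-06), and *Lgals9*, another restrainer of T-cells, from 0.561 and 1.25 to 25 and 16.6 CPM. The co-stimulatory receptor *Cd40* rose from 0.336 and 0.562 to 120 and 110 CPM (log2 change 8.09, SE 0.309, adjusted p = 8.97e-07), and the death receptor *Fas* from 0.168 and 0.187 to 23.1 and 16.2 CPM. Restraining and activating molecules rose side by side. *Il4i1*, an amino acid oxidase that limits T-cell growth, rose from 0.897 and 0.749 to 149 and 123 CPM (log2 change 7.33, SE 0.373, adjusted p = 1.06e-05).

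The MHC class I pathway rose from peptide production to display. *Nlrc5*, the transactivator of class I genes, went from 0.449 and 0.375 to 19.9 and 16.2 CPM (log2 change 5.40, SE 0.32, adjusted p = 8.37e-06), the peptide transporter *Tap1* from 5.05 and 4.87 to 135 and 104 CPM (log2 change 4.59, SE 0.198, adjusted p = 1.26e-06), and the light chain *B2m* from 195 and 207 to 1690 and 1160 CPM (log2 change 2.83, SE 0.237, adjusted p = 4.2e-05). The classical heavy chain *H2-K1*, already high in untreated cells, changed less, from 624 and 511 to 1780 and 1120 CPM (log2 change 1.35, SE 0.266, adjusted p = 0.00385). Class I genes share close sequence, so their counts may trade reads. Of 20 members tested 16 were higher and 1 lower, and a thinned β-cell held a median (5th to 95th percentile) of 16 (8 to 31) and 17 (6 to 34) UMIs untreated and 43 (20 to 68.7) and 31 (11 to 57.4) UMIs with cytokines. The median cell with cytokines lay above the 95th percentile of untreated cells in replicate 1 and below it in replicate 2.

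MHC class II genes were scarce and rested on fewer molecules. The class II transactivator *Ciita* had 1 UMI untreated and 48 with cytokines, a ratio of 64.7 (95% counting interval 11.1 to 2610). *Cd74*, the class II invariant chain, went from 2.89 and 8.87 to 83.1 and 32.8 CPM (log2 change 3.36, SE 0.902, adjusted p = 0.0386), and the α chain *H2-Aa* from 1.07 and 2.06 to 8.31 and 2.78 CPM (log2 change 1.93, SE 0.636, adjusted p = 0.0471). With the islet pool as a block the adjusted p was 0.0538 for *Cd74* and 0.0532 for *H2-Aa*, and the list count fell from 7 to 4 of 11 higher. Macrophages also carry these genes, and the summed macrophage genes stood at 75.4 and 82.3 raw CPM untreated and 126 and 70.8 with cytokines. Most of that sum was *C1qa*, which was not called. Of the scarcer macrophage genes, *Tyrobp* and *C1qb* were called lower (log2 change -3.67 and -3.16) and *Cd68* was called higher (2.29). With barcodes carrying 3 or more UMIs of other-type marker genes (*C1qa* among them) left out, the log2 change was 4.83 for *Cd74* and 2.87 for *H2-Aa* (adjusted p = 0.0199 and 0.00284). The part of macrophages in these changes was not tested. Of the 8 libraries in the fit, leaving out any except cytokine replicate 2 lost the call of *Cd74* (adjusted p = 0.0612 to 0.145), and the 4 libraries alone gave 0.114. The call of *H2-Aa* was lost without either untreated library, cytokine replicate 1 or either library of NMMA alone (adjusted p = 0.0741 to 0.281), with total UMI scaling (0.072) and with the 4 libraries alone (0.0692). Without cytokine replicate 1 the log2 change of *H2-Aa* was 0.90.

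Peptides for class I are cut by the proteasome, whose inducible and standard parts moved to different degrees. The inducible catalytic subunits *Psmb8* and *Psmb9* rose, from 39.1 and 43.2 to 728 and 516 CPM (log2 change 3.92, SE 0.219, adjusted p = 6.32e-06) and from 17.6 and 18.2 to 335 and 248 CPM (log2 change 4.02, SE 0.223, adjusted p = 6.32e-06). The activator subunit *Psme1* rose from 64.5 and 63.3 to 397 and 269 CPM. Of the standard core and regulatory particle, 22 of 35 tested genes were higher and 0 lower, but by less, with a median log2 change of 0.63 against 2.53 for the immunoproteasome list. The core subunit *Psma7* changed the most of them, from 164 and 158 to 512 and 420 CPM (log2 change 1.53, SE 0.166, adjusted p = 0.000145). Total UMI scaling left 17 of the standard genes higher and 1 lower. The polyubiquitin gene *Ubb* rose from 1590 and 1110 to 4250 and 2610 CPM (log2 change 1.35, SE 0.328, adjusted p = 0.013), a call lost without untreated replicate 2 or cytokine replicate 1 (adjusted p = 0.0707 and 0.0711), and *Ube2l6* and *Uba7*, enzymes that attach the ubiquitin-like ISG15, rose by 3.83 and 2.44 on the log2 scale. Over the ubiquitin and ISGylation list 21 of 30 were higher and 1 lower.

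The immunity-related GTPases, which attack the vacuoles of intracellular parasites, had the largest ratio of shares of the lists described here. All 13 members tested were higher, and together they went from 0.00169% and 0.00161% to 0.0865% and 0.0813% of the UMIs. *Irgm1* rose from 11.1 and 10.2 to 232 and 188 CPM (log2 change 4.29, SE 0.173, adjusted p = 1.01e-06). *Igtp* rose from 3 and 3 to 262 and 178 CPM (log2 change 6.20, SE 0.273, adjusted p = 1.32e-06). The conditions did not overlap for either, and the thinned β-cell held a median (5th to 95th percentile) of 0 (0 to 1) and 0 (0 to 1) UMIs untreated and 3 (0 to 14) and 2 (0 to 14) UMIs with cytokines over the list, so some treated cells showed no molecule at this depth. *Tgtp2* had 0 UMIs untreated and 197 with cytokines (at least 88.5-fold higher), and since *Tgtp1* is a near copy its reads could have been divided between them. Sensors of foreign nucleic acids rose too, with 25 of 34 tested members higher and 0 lower. *Zbp1*, a sensor of Z-form nucleic acids that can start necroptosis, went from 0.308 and 2.25 to 95.4 and 84.1 CPM (log2 change 6.38, SE 0.861, adjusted p = 0.00399), though the adjusted p was 0.0937 with the 4 libraries alone and the pool as a block, and *Parp14*, an ADP-ribosyl transferase, from 11.9 and 14.5 to 182 and 152 CPM (log2 change 3.67, SE 0.167, adjusted p = 1.64e-06).

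**Figure D2:**
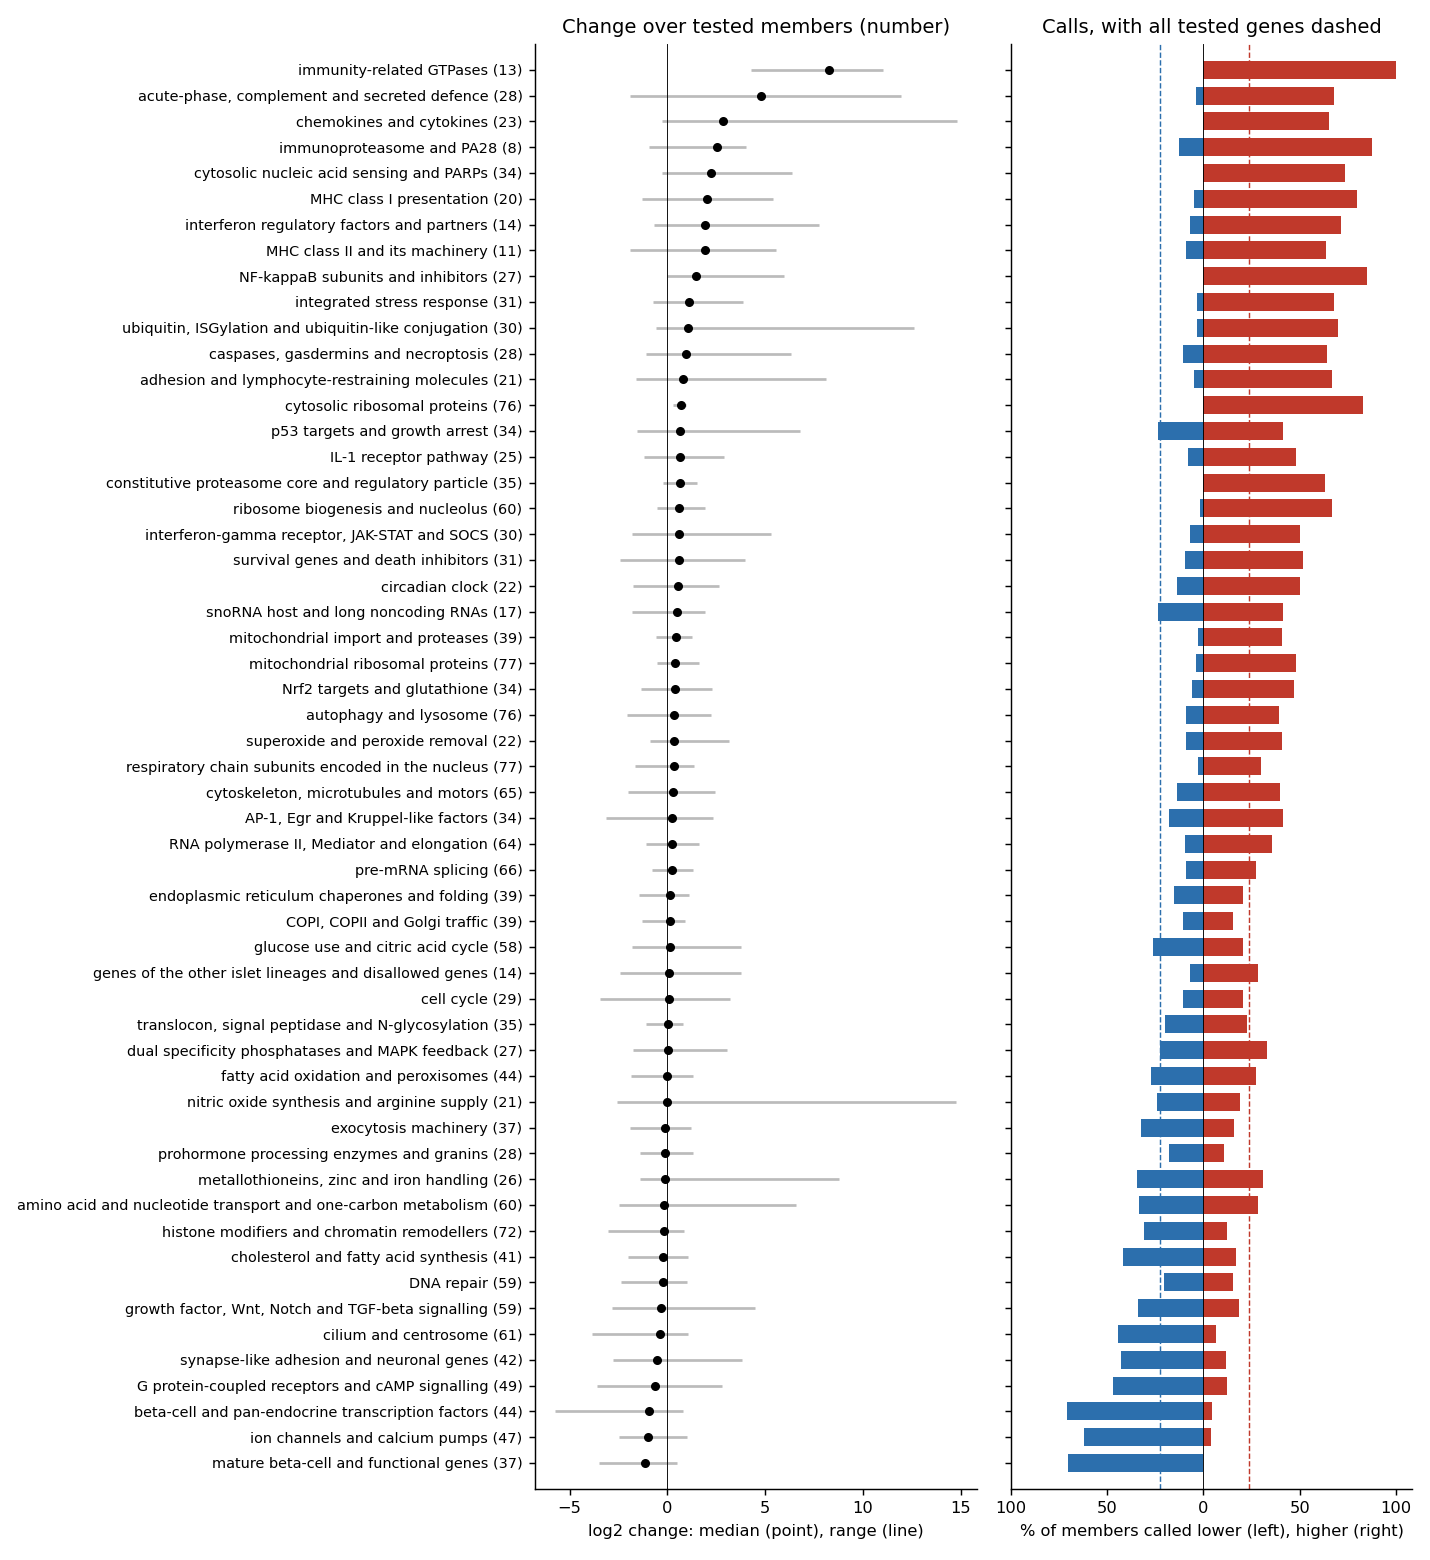
Median log2 change with cytokines over the tested members of each gene list (points, horizontal axis) with the range over members (lines), and beside it the percentage of tested members called higher (red, to the right) and lower (blue, to the left), with dashed lines at the 23.6% and 22.2% of all tested genes. Defence lists lie to the right and β-cell, channel, receptor and cilium lists to the left.

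Of the nitric oxide and arginine genes 4 of 21 tested (19.0%) were higher and 5 (23.8%) lower, shares close to those of all tested genes. *Nos2*, the inducible nitric oxide synthase, had 0 UMIs untreated and 7030 with cytokines, at least 3160-fold higher. *Gch1*, the first enzyme of its cofactor tetrahydrobiopterin, rose from 322 and 334 to 466 and 421 CPM (log2 change 0.44, SE 0.14, adjusted p = 0.0305), but the call was lost without untreated replicate 1, untreated replicate 2 or cytokine replicate 1 (adjusted p = 0.14, 0.105 and 0.157), and total UMI scaling gave an adjusted p of 0.253. The arginine transporter *Slc7a2*, which is also one of the α-cell genes whose summed level was lower with cytokines, fell from 74.7 and 64 to 23.7 and 24.6 CPM (log2 change -1.52, SE 0.13, adjusted p = 4.41e-05), and *Arg1*, an arginase that competes for arginine, from 5.13 and 3.93 to 0.748 and 0.773 CPM (log2 change -2.58, SE 0.376, adjusted p = 0.000692). Polyamine genes moved both ways: the catabolic *Sat1* rose from 27 and 32.4 to 199 and 126 CPM while the synthetic *Sms* and *Amd1* fell by 0.81 and 1.10 on the log2 scale. The call of *Amd1* was lost without untreated replicate 1 or cytokine replicate 1 (adjusted p = 0.0799 and 0.1).

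Defences against oxidants rose unevenly. The mitochondrial superoxide dismutase *Sod2* went from 99.6 and 92.3 to 948 and 768 CPM (log2 change 3.16, SE 0.225, adjusted p = 1.79e-05), and the glutathione peroxidase *Gpx1* from 66 and 81.4 to 274 and 247 CPM (log2 change 1.82, SE 0.153, adjusted p = 3.97e-05). Catalase (*Cat*), known to be low in β-cells, rose from 2.24 and 2.25 to 5.63 and 5.49 CPM (log2 change 1.31, SE 0.234, adjusted p = 0.002). Of 22 genes that remove superoxide and peroxides 9 were higher and 2 lower. Among targets of the oxidant-sensing factor NRF2, 16 of 34 tested members were higher and 2 lower. *Slc7a11*, which imports cystine for glutathione, rose from 1.99 and 2.37 to 14.1 and 6.88 CPM (log2 change 2.30, SE 0.382, adjusted p = 0.00209), *Gclm*, of glutathione synthesis, from 128 and 125 to 300 and 252 CPM, and *Cbr3*, a carbonyl reductase, fell from 12 and 11.1 to 4.8 and 4.17 CPM.

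Metal handling genes moved in both directions, with 8 of 26 tested members higher and 9 lower. *Hamp*, which encodes the iron hormone hepcidin, went from 0.392 and 0.125 to 195 and 70.2 CPM (log2 change 8.76, SE 0.862, adjusted p = 0.00117). The iron importer *Slc11a2* rose from 12.6 and 11.2 to 53.8 and 47.8 CPM (log2 change 2.09, SE 0.138, adjusted p = 1.34e-05), and the reductase *Steap4* from 0.673 and 0.562 to 16.6 and 16.2 CPM. Both cytokine libraries lay above both untreated libraries for these iron genes, and hepcidin differed most between the cytokine libraries. The metal-binding *Mt1* was among the largest rises in CPM, from 827 and 2290 to 6760 and 8110 CPM (log2 change 2.26, SE 0.555, adjusted p = 0.0224), from untreated libraries that differed widely. The call of *Mt1* was lost without cytokine replicate 1 or cytokine replicate 2 (log2 change 2.38 and 2.13). It was also lost without either library of cytokines with NMMA, which lie outside the comparison. The adjusted p was 0.0507 with total UMI scaling, 0.0809 with the 4 libraries alone and 0.0782 with thinned cells. It was 0.0574 without barcodes carrying other-type markers, and 0.0145 with the pool as a block. *Slc30a1*, which exports zinc from the cell, rose from 7.77 and 10.2 to 25.7 and 23.2 CPM, while *Slc30a8*, which loads zinc into insulin granules, fell from 317 and 220 to 122 and 85.2 CPM (log2 change -1.37, SE 0.28, adjusted p = 0.00485).

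The integrated stress response, in which phosphorylated eIF2α lowers translation and lets ATF4 be made, rose in 21 of 31 tested members and fell in 1. *Atf4* itself went from 153 and 167 to 457 and 327 CPM (log2 change 1.29, SE 0.197, adjusted p = 0.000863), *Atf3* from 0.869 and 2.25 to 20 and 22.9 CPM (log2 change 3.89, SE 0.374, adjusted p = 0.000133) and the stress factor *Nupr1* from 118 and 190 to 1040 and 1300 CPM (log2 change 2.93, SE 0.27, adjusted p = 8.77e-05). *Ppp1r15a*, which removes the phosphate from eIF2α, rose from 17.7 and 19.2 to 87 and 73.6 CPM. *Asns*, an amino acid synthetase gene that ATF4 drives, rose from 98.8 and 88.3 to 205 and 160 CPM (log2 change 0.96, SE 0.193, adjusted p = 0.00358). *Trib3*, a pseudokinase made under the same programme, went from 9.9 and 16.2 to 69.9 and 47 CPM. The list took 0.136% and 0.147% of UMIs untreated and 0.351% and 0.313% with cytokines.

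The endoplasmic reticulum folding machinery did not move together. Of 39 tested chaperones and folding genes 8 were higher and 6 lower, shares below those of all genes, and with the pool as a block 17 and 11. The chaperone *Hspa5* (BiP) rose from 885 and 1040 to 1600 and 1440 CPM (log2 change 0.66, SE 0.146, adjusted p = 0.00604), a call lost without untreated replicate 1 (adjusted p = 0.0593), as did *Derl1*, which helps retrieve misfolded proteins, from 106 and 112 to 248 and 219 CPM (log2 change 1.10, SE 0.147, adjusted p = 0.000436). Other members fell: *Ero1lb*, an oxidase abundant in β-cells, went from 412 and 384 to 186 and 174 CPM (log2 change -1.15, SE 0.135, adjusted p = 0.000224), *Pdia5* from 15.4 and 12 to 4.77 and 5.25 CPM and *Dnajc10* from 69.2 and 64.3 to 30.6 and 29.4 CPM. The list held 0.955% and 0.989% of UMIs untreated and 1.04% and 0.954% with cytokines, with overlap between the conditions. Translocon and glycosylation genes gave 8 higher and 7 lower of 35 (13 and 13 with the block), and vesicle coat and Golgi genes 6 and 4 of 39 (17 and 7 with the block). With total UMI scaling these 3 lists leaned lower, with 5, 3 and 3 members higher and 12, 13 and 9 lower. So did all tested genes under that scaling, with 15.1% higher and 31.3% lower. The chaperone list also leaned lower without untreated replicate 1 (3 higher and 5 lower) and without cytokine replicate 1 (3 higher and 6 lower), so no direction is given for these lists.

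Of 28 tested prohormone processing enzymes and granins 3 (10.7%) were higher and 5 (17.9%) lower, shares below those of all tested genes. With the block 7 were higher and 10 lower. *Pcsk1*, the convertase that makes the first cut in proinsulin, fell from 160 and 149 to 83.1 and 66.3 CPM (log2 change -1.05, SE 0.148, adjusted p = 0.000577), while *Cpe*, the carboxypeptidase that trims the cut ends, rose from 970 and 1030 to 1660 and 1530 CPM (log2 change 0.68, SE 0.131, adjusted p = 0.00297). *Chga*, a granin of the secretory granule, was at 4990 and 3660 CPM untreated and 4560 and 3220 CPM with cytokines, which did not pass the test (adjusted p = 0.704). It was lower in each pool, and the 4 libraries alone with the pool as a block gave a log2 change of -0.18 (adjusted p = 0.0234). *Sytl4*, which docks insulin granules, fell from 125 and 140 to 43.7 and 57.6 CPM (log2 change -1.39, SE 0.186, adjusted p = 0.000433). Together the processing enzymes and granins took 6.99% and 5.34% of UMIs untreated and 6.71% and 4.55% with cytokines. The exocytosis list had 6 of 37 tested members higher and 12 lower. *Cadps*, which primes granules for release, fell from 80 and 77.1 to 21.2 and 20.5 CPM (log2 change -1.91, SE 0.199, adjusted p = 0.000119), the granule GTPases *Rab3a* and *Rab27a* fell by 1.65 and 1.58 on the log2 scale, and *Cplx2*, a clamp of the fusion machinery, by 1.49.

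Genes of channels and pumps leaned down. Of 47 tested genes 29 were lower and 2 higher, and their summed share went from 0.27% and 0.291% to 0.134% and 0.135% of UMIs. The potassium channel *Kcnk16* (TALK-1) fell from 81.9 and 58.1 to 13.7 and 11.7 CPM (log2 change -2.46, SE 0.181, adjusted p = 2.11e-05), and *Gjd2*, the gap junction protein that couples β-cells, from 57.8 and 59.6 to 13.3 and 15.3 CPM (log2 change -2.04, SE 0.145, adjusted p = 1.79e-05). *Atp2a2*, the SERCA2 pump that fills the endoplasmic reticulum with calcium, fell from 497 and 664 to 268 and 323 CPM (log2 change -0.97, SE 0.177, adjusted p = 0.00216), and the calcium release channel *Itpr2* from 14.3 and 9.68 to 1.77 and 3.01 CPM (log2 change -2.38, SE 0.356, adjusted p = 0.000977). All 4 lay lower in both cytokine libraries than in both untreated libraries. Of the ATP-sensitive potassium channel, the pore gene *Kcnj11* did not show this. It was at 21.8 and 19.4 CPM untreated and 26 and 20.6 CPM with cytokines (log2 change 0.18, SE 0.148, adjusted p = 0.345). The regulatory subunit *Abcc8* was lower in both cytokine libraries, at 298 and 252 CPM untreated and 223 and 161 CPM with cytokines. Its log2 change of -0.52 was not called (adjusted p = 0.0623), nor was it without barcodes carrying other-type markers (0.0518). *Abcc8* was called lower with the pool as a block (adjusted p = 0.00258), total UMI scaling (0.0136), DESeq2 (0.0276) and thinned cells (0.0371).

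Receptors that tune insulin secretion also leaned down, with 23 of 49 tested genes of G protein-coupled receptors and cAMP signalling lower and 6 higher. *Ffar1*, the long-chain fatty acid receptor, fell from 102 and 115 to 12.1 and 23.2 CPM (log2 change -2.64, SE 0.296, adjusted p = 0.000342). *Galr1*, a receptor of the inhibitory peptide galanin, fell from 19.9 and 22.9 to 1.18 and 2.55 CPM (log2 change -3.60, SE 0.396, adjusted p = 0.000317), *Ffar3* from 9.22 and 11.2 to 0.669 and 1.55 CPM and *Gpr119* from 6.14 and 4.25 to 0.827 and 0.386 CPM. The falls included *Ffar1*, which favours secretion, and *Galr1*, which restrains it. Of the incretin receptors, *Gipr* fell from 31.2 and 24.9 to 11 and 15.8 CPM (log2 change -1.08, SE 0.198, adjusted p = 0.00228). *Glp1r* was counted very differently in the replicates, at 4.18 and 397 CPM untreated and 0.945 and 99.5 CPM with cytokines, and was not called (adjusted p = 0.696), whereas with the pool as a block its log2 change of -2.02 had an adjusted p of 1.9e-09. It was 1 of 48 genes that differed at least 8-fold between replicates in both conditions, of which 0 were called by edgeR without the block and 20 with it.

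β-cell identity genes fell as a group. Of 44 tested transcription factors of β-cells and endocrine cells 31 were lower and 2 higher, and of 37 mature β-cell genes 26 were lower and 0 higher. The insulin genes are not counted in these lists. *Mafa*, an activator of insulin transcription and a mark of maturity, fell from 606 and 464 to 37.9 and 44.4 CPM (log2 change -3.70, SE 0.221, adjusted p = 8.77e-06). *Pdx1*, needed to keep the β-cell state, fell from 128 and 116 to 20.8 and 20.1 CPM (log2 change -2.58, SE 0.163, adjusted p = 1.15e-05), and *Nkx6-1*, which holds off other endocrine fates, from 211 and 166 to 96.4 and 87.9 CPM (log2 change -1.03, SE 0.155, adjusted p = 0.000807). *Neurod1* changed less, from 136 and 169 to 95.1 and 107 CPM (log2 change -0.59, SE 0.157, adjusted p = 0.0134). Every untreated library exceeded every cytokine library for these factors, but the call of *Neurod1* was lost without untreated replicate 2 or cytokine replicate 1 (adjusted p = 0.0981 and 0.0894). *Ucn3*, a peptide of mature β-cells, fell from 162 and 129 to 24.8 and 22.8 CPM (log2 change -2.61, SE 0.187, adjusted p = 1.83e-05), *Slc2a2*, the glucose transporter GLUT2, from 131 and 87.3 to 9.61 and 9.97 CPM (log2 change -3.48, SE 0.234, adjusted p = 1.59e-05) and *Prlr*, the prolactin receptor, from 135 and 126 to 26.3 and 29.4 CPM (log2 change -2.23, SE 0.143, adjusted p = 1.21e-05). The factor list went from 0.281% and 0.272% to 0.106% and 0.114% of the UMIs, while the mature list, in which *Iapp* weighs most, took 5.92% and 4.45% of UMIs untreated and 5.52% and 3.58% with cytokines, with overlap between the conditions.

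Early, other-lineage and normally silent genes gave a mixed picture, with 4 of 14 tested higher and 1 lower. *Neurog3*, the factor of endocrine progenitors, had 98 UMIs untreated and 1 with cytokines, so it was 72.7 times lower with cytokines (95% counting interval 12.7 to 2900). *Aldh1a3*, used as a mark of dedifferentiated β-cells, was at 0.645 and 0.687 CPM untreated and 0.236 and 0.464 CPM with cytokines and was not called (adjusted p = 0.559). Of genes that β-cells normally keep silent, *Slc16a1*, a lactate and pyruvate transporter, rose from 0.112 and 0.25 to 1.1 and 1.31 CPM (log2 change 2.83, SE 0.586, adjusted p = 0.00413) and *Hk2*, a high-affinity hexokinase, had 2 UMIs untreated and 22 with cytokines, a ratio of 14.8 (95% counting interval 3.65 to 130), both still at low counts and both not called without untreated replicate 1 (adjusted p = 0.0614 and 0.0605). The factors and mature genes were counted per library, so fewer cells that express a gene and less RNA in each cell cannot be told apart in these sums. Thinned cells gave a median (5th to 95th percentile) over the factor list of 14 (6 to 25) and 13 (3 to 25.2) UMIs untreated and 5 (1 to 13) and 5 (1 to 13) UMIs with cytokines.

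**Figure D3:**
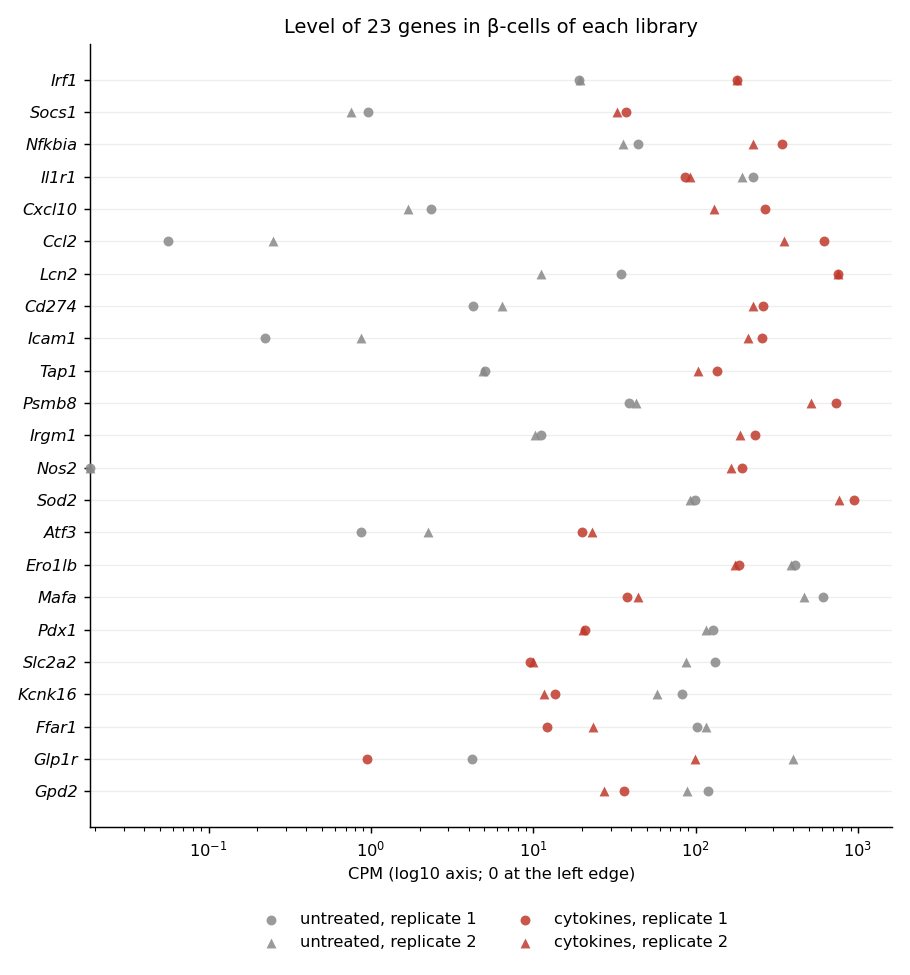
Normalized level (CPM on a log10 axis) of 23 named genes in each of the 4 libraries, with untreated libraries in grey and cytokine libraries in red, circles for replicate 1 and triangles for replicate 2. Genes at 0 CPM are drawn at the left edge, and in each row except *Glp1r* the 2 libraries of a condition lie apart from those of the other.

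Genes of glucose use were called about as often as all tested genes. Of 58 tested genes 12 (20.7%) were higher and 15 (25.9%) lower, and 7 and 17 with total UMI scaling. *G6pc2*, which removes the phosphate from glucose 6-phosphate, fell from 288 and 311 to 82.7 and 86.9 CPM (log2 change -1.82, SE 0.159, adjusted p = 5e-05). *Pfkfb3*, which speeds glycolysis, rose from 7.09 and 10.5 to 41.8 and 45.4 CPM (log2 change 2.32, SE 0.194, adjusted p = 3.89e-05), while its relative *Pfkfb2* fell from 24.3 and 18.5 to 11.5 and 10.8 CPM. *Gpd2*, of the shuttle that carries glycolytic electrons into mitochondria, fell from 119 and 89 to 36.3 and 27.4 CPM (log2 change -1.71, SE 0.185, adjusted p = 0.000145), and *Fh1*, the fumarase of the citric acid cycle, from 116 and 101 to 43.4 and 34.9 CPM (log2 change -1.47, SE 0.146, adjusted p = 9.74e-05).

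Nuclear genes of mitochondria leaned up by small amounts with TMM normalization, and less so with total UMI scaling. Of 77 nuclear respiratory chain genes 23 were higher and 2 lower (49 and 5 with the block), but the sizes were small, with a median log2 change of 0.32, and total UMI scaling left 6 higher and 6 lower. *Cycs*, cytochrome c, rose from 74.5 and 76.3 to 205 and 176 CPM (log2 change 1.34, SE 0.136, adjusted p = 0.000109), and *Ndufa4*, of the terminal complex, fell from 292 and 244 to 76.2 and 92.2 CPM (log2 change -1.67, SE 0.182, adjusted p = 0.000147). Mitochondrial ribosomal proteins gave 37 higher and 3 lower of 77 (21 and 9 with total UMI scaling), and import and protease genes 16 and 1 of 39 (7 and 5). *Lonp1*, a protease of the matrix, rose from 42.6 and 56.2 to 128 and 107 CPM (log2 change 1.26, SE 0.18, adjusted p = 0.000631), and the import motor *Hspa9* from 136 and 171 to 367 and 348 CPM (log2 change 1.22, SE 0.157, adjusted p = 0.000353).

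The 13 mitochondrially encoded genes entered the rule through their share of UMIs and are given as values only. *mt-Nd1* was at 2060 and 1700 CPM untreated and 622 and 736 CPM with cytokines, *mt-Nd3* at 739 and 921 CPM untreated and 101 and 251 CPM with cytokines and *mt-Nd4l* at 190 and 184 CPM untreated and 40.8 and 77.8 CPM with cytokines. *mt-Co1* was at 7890 and 7390 CPM untreated and 10900 and 9270 CPM with cytokines and *mt-Atp6* at 8150 and 6950 CPM untreated and 8200 and 6630 CPM with cytokines. These complex I transcripts were lower in both cytokine libraries, while *mt-Co1* was higher in both and *mt-Atp6* overlapped. All these genes are read from the same circular genome, and the median share of 4.78% and 4.08% against 3.58% and 3.14% given above is their sum per cell.

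Lipid synthesis leaned down, with 17 of 41 tested cholesterol and fatty acid synthesis genes lower and 7 higher. *Acly*, which makes cytosolic acetyl-CoA, fell from 666 and 829 to 277 and 373 CPM (log2 change -1.20, SE 0.238, adjusted p = 0.00355), *Fasn*, the fatty acid synthase, from 29.1 and 19.4 to 9.81 and 7.73 CPM (log2 change -1.46, SE 0.211, adjusted p = 0.000642) and the desaturase *Scd2* from 77.6 and 68.1 to 17.4 and 18.4 CPM (log2 change -2.02, SE 0.129, adjusted p = 1.19e-05). *Fdps*, an enzyme on the way to sterols and prenyl groups, rose from 87.7 and 87.6 to 196 and 166 CPM (log2 change 1.05, SE 0.158, adjusted p = 0.000835). Fatty acid oxidation and peroxisome genes were even, with 12 higher and 12 lower of 44. Within them *Hadh*, a β-oxidation enzyme that also restrains insulin secretion, fell from 304 and 264 to 124 and 109 CPM (log2 change -1.29, SE 0.14, adjusted p = 0.000145) and the peroxisomal transporter *Abcd3* from 128 and 121 to 32 and 35.9 CPM (log2 change -1.88, SE 0.127, adjusted p = 1.44e-05).

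Genes of ribosomes and of their assembly rose. Of 76 tested cytosolic ribosomal protein genes, many of which have near copies elsewhere in the genome, 63 were higher and 0 lower (76 and 0 with the block, 34 and 0 with total UMI scaling), and they took 6.69% and 7.59% of UMIs untreated and 9.12% and 10.2% with cytokines. Of 60 tested ribosome biogenesis and nucleolar genes 40 were higher and 1 lower (23 and 3 with total UMI scaling). *Noc4l*, of the small subunit assembly, rose from 5.16 and 4.68 to 18.6 and 15 CPM (log2 change 1.77, SE 0.165, adjusted p = 7.16e-05), nucleophosmin (*Npm1*) from 199 and 223 to 454 and 419 CPM (log2 change 1.05, SE 0.135, adjusted p = 0.000361), and *Myc*, a factor that drives such genes, from 2.8 and 3.06 to 12.5 and 9.27 CPM (log2 change 1.90, SE 0.2, adjusted p = 0.000125). The untreated and cytokine libraries did not overlap for these genes. Splicing genes gave 18 higher and 6 lower of 66 (31 and 8 with the block, 9 and 10 with total UMI scaling). RNA polymerase II, Mediator and elongation genes gave 23 and 6 of 64 (15 and 14 with total UMI scaling). *Tcea1*, an elongation factor, rose from 45.8 and 69.3 to 169 and 189 CPM (log2 change 1.64, SE 0.203, adjusted p = 0.000289). Host genes of small nucleolar RNAs and long noncoding RNAs gave 7 higher and 4 lower of 17. *Malat1*, a nuclear noncoding RNA, rose from 7170 and 7790 to 11000 and 11100 CPM (log2 change 0.56, SE 0.195, adjusted p = 0.04), with an adjusted p of 0.116 under the block, 0.137 with total UMI scaling and 0.107 over genes with a mean of at least 10 CPM. Leaving out any of the 4 libraries also lost this call (adjusted p = 0.17 without untreated replicate 1, 0.109 without untreated replicate 2, 0.125 without cytokine replicate 1 and 0.111 without cytokine replicate 2).

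**Figure D4:**
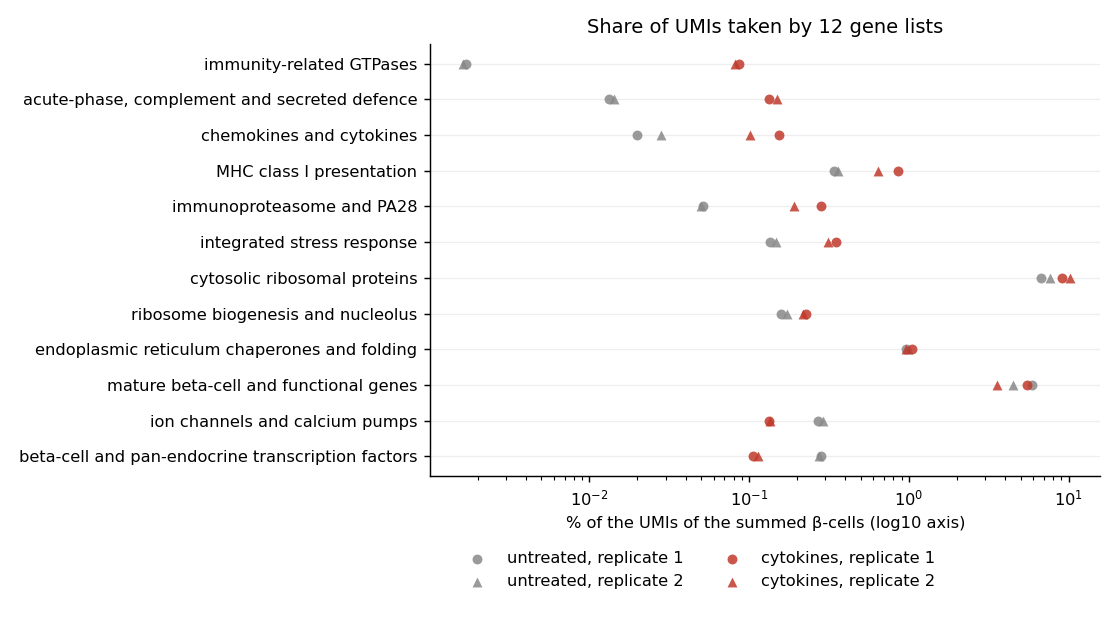
Percentage of the UMIs of the summed β-cells taken by 12 gene lists (log10 axis) in each of the 4 libraries, with untreated in grey and cytokines in red, circles for replicate 1 and triangles for replicate 2. The immunity-related GTPases move furthest, and the chaperone and mature β-cell lists overlap between conditions.

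Chromatin genes leaned the other way, with 22 of 72 tested histone modifiers and remodellers lower and 9 higher. *Kdm2b*, which recruits Polycomb to CpG islands, fell from 119 and 88.2 to 13 and 12.5 CPM (log2 change -3.02, SE 0.212, adjusted p = 1.69e-05). *Hdac6*, a cytoplasmic deacetylase, fell from 54 and 46.3 to 13.2 and 14.9 CPM (log2 change -1.84, SE 0.141, adjusted p = 2.53e-05), and *Tet1*, which oxidises methylated cytosine, from 5.05 and 4.56 to 0.866 and 1.16 CPM (log2 change -2.27, SE 0.261, adjusted p = 0.000197). *Chd4*, a motor of the NuRD complex, fell from 110 and 130 to 36.6 and 52.5 CPM (log2 change -1.43, SE 0.205, adjusted p = 0.00063). These libraries were separate by condition for all 4 genes.

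Genes of death and of survival rose together. Among caspases, gasdermins and necroptosis genes 18 of 28 tested were higher and 3 lower. *Mlkl*, the executioner of necroptosis, went from 0.953 and 1.06 to 31 and 23.4 CPM (log2 change 4.77, SE 0.258, adjusted p = 5.74e-06), the inflammatory caspase *Casp4* from 0.0561 and 0.187 to 10.9 and 5.64 CPM (log2 change 6.31, SE 0.59, adjusted p = 0.000116) and the pore protein *Gsdmd* from 1.46 and 1.81 to 17.1 and 7.5 CPM (log2 change 2.94, SE 0.402, adjusted p = 0.000733). *Ripk3*, the kinase that activates MLKL, did not pass the filter on low counts. Survival genes gave 16 higher and 3 lower of 31: *Birc3*, which blocks death signals at tumour necrosis factor receptors, rose from 4.26 and 4.62 to 60.2 and 39.6 CPM (log2 change 3.50, SE 0.271, adjusted p = 3.95e-05), *Bcl2l1* (BCL-XL) from 13.8 and 16.7 to 37.2 and 31.5 CPM (log2 change 1.18, SE 0.192, adjusted p = 0.00124) and *Mcl1* from 38.8 and 47.8 to 74.4 and 68.5 CPM (log2 change 0.72, SE 0.14, adjusted p = 0.00294). Of p53 targets and growth arrest genes 14 of 34 were higher and 8 lower. *Gadd45b*, also a target of NF-κB, rose from 5.52 and 12.2 to 146 and 118 CPM (log2 change 3.93, SE 0.366, adjusted p = 0.000229) and the cyclin-dependent kinase inhibitor *Cdkn1a* from 25.1 and 40.9 to 70.1 and 81.7 CPM (log2 change 1.20, SE 0.212, adjusted p = 0.00195).

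Autophagy and lysosome genes rose in 30 of 76 tested members and fell in 7 (20 and 14 with total UMI scaling). The cargo receptor *Sqstm1* (p62) went from 86.6 and 126 to 537 and 464 CPM (log2 change 2.24, SE 0.204, adjusted p = 6.17e-05) and the protease *Ctsb* from 167 and 220 to 679 and 665 CPM (log2 change 1.80, SE 0.225, adjusted p = 0.000309). *Glb1*, the lysosomal β-galactosidase, fell from 17.4 and 13.1 to 3.5 and 3.94 CPM (log2 change -2.05, SE 0.181, adjusted p = 5.25e-05). The lysosomal enzymes named here moved in both directions.

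Of the AP-1, Egr and Kruppel-like genes 14 of 34 tested were higher and 6 lower. *Egr1*, which responds to calcium and glucose in β-cells, fell from 73.6 and 105 to 7.52 and 12.7 CPM (log2 change -3.16, SE 0.276, adjusted p = 8.7e-05), and *Fos* from 32.2 and 38.2 to 4.92 and 4.87 CPM (log2 change -2.84, SE 0.279, adjusted p = 0.000132). *Klf6* rose from 9.87 and 13.2 to 58.7 and 57.6 CPM (log2 change 2.34, SE 0.18, adjusted p = 2.53e-05) and *Mafk*, a small MAF protein, from 9.2 and 8.99 to 45.2 and 38.6 CPM (log2 change 2.20, SE 0.134, adjusted p = 8.92e-06). The MAP kinase phosphatase *Dusp4* rose from 1.79 and 2.94 to 24.3 and 13.5 CPM (log2 change 3.05, SE 0.396, adjusted p = 0.00071), whereas *Dusp23* fell from 21.5 and 17.6 to 5.2 and 6.57 CPM (log2 change -1.75, SE 0.212, adjusted p = 0.000264). Of 27 such phosphatases and MAPK feedback genes 9 were higher and 6 lower (7 and 9 with total UMI scaling).

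Of 65 tested cytoskeletal genes 26 were higher and 9 lower. *Actg1*, a cytoplasmic actin, rose from 581 and 562 to 2510 and 1690 CPM (log2 change 1.88, SE 0.188, adjusted p = 0.000102), the keratin *Krt8* from 84.6 and 116 to 454 and 359 CPM (log2 change 2.02, SE 0.196, adjusted p = 8.7e-05) and its partner *Krt18* from 152 and 156 to 559 and 437 CPM (log2 change 1.69, SE 0.186, adjusted p = 0.000155). The ductal genes, which include keratins of their own, summed to 357 and 362 raw CPM untreated and 504 and 438 with cytokines, and their part in these changes was not tested. *Tubb5*, a β-tubulin, rose from 56.6 and 52.5 to 241 and 160 CPM (log2 change 1.88, SE 0.197, adjusted p = 0.000124).

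Genes of the primary cilium, the antenna that β-cells carry, fell in 27 of 61 tested members and rose in 4. *Cc2d2a*, of the gate at the cilium's base, fell from 11.6 and 10.8 to 0.945 and 0.541 CPM (log2 change -3.83, SE 0.249, adjusted p = 1.27e-05). *Dync2h1*, the motor that carries cargo back from the tip, fell from 40.7 and 33 to 10.5 and 7.8 CPM (log2 change -1.999, SE 0.232, adjusted p = 0.000244), and *Rfx3*, a factor that drives ciliary genes, from 13.9 and 14.2 to 6.42 and 6.8 CPM (log2 change -1.09, SE 0.146, adjusted p = 0.000437). Neuron-like adhesion genes, which β-cells share with nerve cells, fell in 18 of 42 and rose in 5. The cadherin *Cdh7* fell from 9.08 and 7.87 to 1.26 and 1.16 CPM (log2 change -2.80, SE 0.213, adjusted p = 2.48e-05) and the glutamate receptor subunit *Gria3* from 10.8 and 12.1 to 2.09 and 2.16 CPM (log2 change -2.43, SE 0.185, adjusted p = 2.48e-05).

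Growth factor, Wnt, Notch and TGF-β genes fell in 20 of 59 tested members and rose in 11. The neurotrophin receptor *Ntrk2* fell from 88.7 and 80.1 to 14.1 and 18.9 CPM (log2 change -2.36, SE 0.159, adjusted p = 1.42e-05), *Notch1* from 11.2 and 11.1 to 1.69 and 2.86 CPM (log2 change -2.34, SE 0.239, adjusted p = 0.00011) and the insulin receptor substrate *Irs1* from 3.78 and 3.87 to 0.591 and 1.31 CPM (log2 change -2.09, SE 0.353, adjusted p = 0.00149). *Wnt4*, a Wnt ligand of mature β-cells, fell from 380 and 286 to 130 and 110 CPM (log2 change -1.47, SE 0.25, adjusted p = 0.00174). The conditions did not overlap for these 4 genes.

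Clock genes moved in both arms. *Nfil3* rose from 15.6 and 12.2 to 63.1 and 37.6 CPM (log2 change 1.85, SE 0.29, adjusted p = 0.00165), while *Dbp*, a factor that competes with it at the same sites, fell from 48.8 and 42.1 to 15.8 and 19 CPM (log2 change -1.39, SE 0.151, adjusted p = 0.000145). The repressor *Per1* rose from 8.97 and 9.31 to 17.9 and 22.1 CPM (log2 change 1.13, SE 0.222, adjusted p = 0.00322) and *Per3* fell from 17.5 and 14.6 to 4.41 and 5.02 CPM (log2 change -1.78, SE 0.165, adjusted p = 6.71e-05). Of 22 clock genes 11 were higher and 3 lower. Few cell cycle genes passed the filter on low counts, and of 29 tested 6 were higher and 3 lower. *E2f1*, which drives entry into S phase, fell from 6.56 and 6.18 to 1.73 and 1.16 CPM (log2 change -2.10, SE 0.256, adjusted p = 0.000269). Of 59 DNA repair genes 9 were higher and 12 lower. *Prkdc*, a kinase of double-strand break joining, fell from 8.07 and 8.37 to 1.54 and 1.62 CPM (log2 change -2.38, SE 0.214, adjusted p = 5.67e-05), and *Apex1*, of base excision repair, rose from 10.4 and 11 to 23.4 and 19.1 CPM (log2 change 0.99, SE 0.166, adjusted p = 0.00142).

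Amino acid and nucleotide genes were divided, with 17 of 60 tested members higher and 20 lower. *Upp1*, which breaks down uridine, rose from 47.5 and 27.9 to 309 and 145 CPM (log2 change 2.59, SE 0.47, adjusted p = 0.00624), and *Ppat*, which commits to purine synthesis, fell from 56.1 and 56.4 to 11.4 and 12.3 CPM (log2 change -2.25, SE 0.171, adjusted p = 2.49e-05). *Slc7a5*, an importer of large neutral amino acids, rose from 42.6 and 43.9 to 69.4 and 69.2 CPM (log2 change 0.68, SE 0.127, adjusted p = 0.00247), whereas the amino acid transporter *Slc38a4* fell from 70.5 and 70.5 to 38.6 and 41.3 CPM (log2 change -0.82, SE 0.114, adjusted p = 0.000526).

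Among the largest decreases of all tested genes were some that no list held. *Gatsl2*, a relative of cytosolic arginine sensors, fell from 175 and 169 to 17.7 and 25.3 CPM (log2 change -3.01, SE 0.196, adjusted p = 1.27e-05), *Wdr6* from 55.7 and 54.8 to 7.09 and 8.58 CPM (log2 change -2.83, SE 0.158, adjusted p = 6.32e-06) and *Sorbs2*, an adaptor of the actin cytoskeleton, from 122 and 124 to 28 and 21.2 CPM (log2 change -2.32, SE 0.163, adjusted p = 1.71e-05). *Pnmal1* and *Pnmal2*, neighbouring genes of the same family, fell by 2.67 and 2.40 on the log2 scale. Measured by the fall in CPM, *H3f3a*, which encodes the replication-independent histone H3.3, fell from 448 and 340 to 176 and 161 CPM (log2 change -1.23, SE 0.212, adjusted p = 0.00168) and the imprinted *Peg3* from 482 and 504 to 263 and 255 CPM (log2 change -0.93, SE 0.134, adjusted p = 0.000657). Each of these genes was lower in both cytokine libraries than in both untreated libraries, which the way they were chosen favours.

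Genes called lower had a longer median length than those called higher, except among the largest changes. The genomic length had a median of 23.2 kb over all tested genes, 21.5 kb over those called higher and 26.5 kb over those called lower, and of 21.4 and 25.7 kb with the calls of the block. Among genes that changed by at least 4-fold the medians were 18.6 kb for the higher and 18.1 kb for the lower. Split by length into 5 groups of equal size, the longest genes (68.8 kb and over) were higher in 18.0% and lower in 28.5%, while those of the middle group were higher in 27.2% and lower in 18.6%. In the most expressed of 3 groups of genes, the longest were higher in 24.6% and lower in 29.5%, against 47.0% and 11.1% in the middle length group. In the least expressed group the same shares were 12.6% and 27.4% against 13.0% and 24.9%, so the difference by length was small there. The shortest genes (7.5 kb and under) gave 23.1% higher and 23.2% lower, so the shares did not fall steadily with length.

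**Figure D5:**
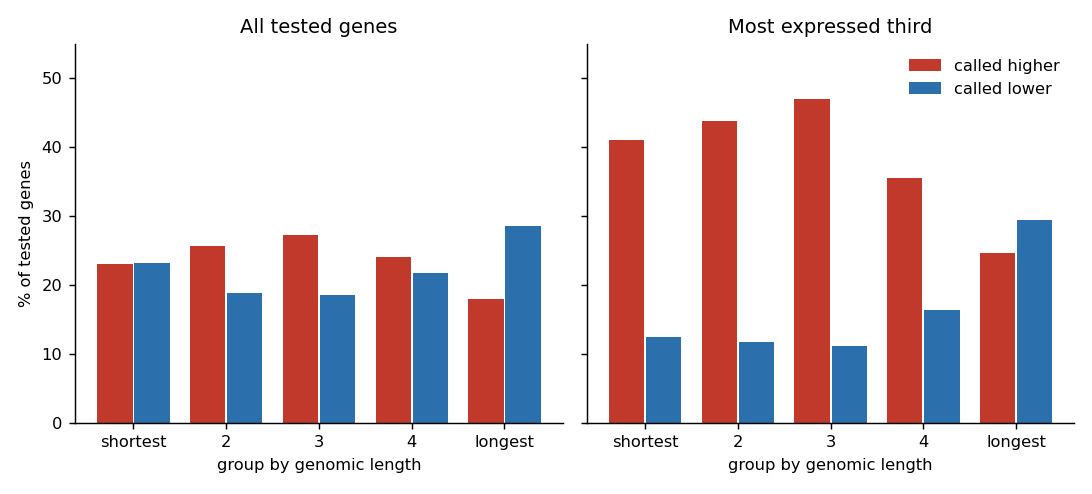
Percentage of tested genes called higher (red) and lower (blue) with cytokines in 5 groups of equal size by genomic length, from shortest to longest, for all genes (left) and for the most expressed of 3 groups (right). Among all genes the longest group has 18.0% higher and 28.5% lower.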

How the data were processed

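Islets from male mice were cultured, treated and dissociated, and single-cell libraries were made with a droplet kit given as version 2 in the labels and version 3 in the study's methods. The authors deposited for each library a table of raw UMI counts (genes against barcodes) produced by Cell Ranger against mm10 (per the submitters' processing notes); the counts were not normalized. The matrix headers name version 3.0.0 for replicate 1 and 6.0.0 for replicate 2, and the 30406 genes common to both gene lists were used, of which 597 carry another symbol in the second. The β-cell rule given above was applied to the barcodes, no doublet caller was run, and an alternative left out barcodes with 3 or more UMIs of non-endocrine marker genes, which kept 730 and 304 untreated and 497 and 226 cytokine-treated β-cells. UMIs were then summed per library and tested with edgeR 4.0.16 (R 4.3.3) by the quasi-likelihood F test with filterByExpr, TMM normalization and robust dispersion. All 8 libraries of the 4 conditions entered the fit so that they share an estimate of the spread, and the Benjamini-Hochberg threshold was 0.05 over all genes tested. SE is the size of the log2 change divided by the square root of F. The script was tested on simulated data. Genes of the rule (hormone and mitochondrial genes) are given without a test and left out of the 55 lists of other genes.

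Libraries of the same replicate number share a pool, and they also share the Cell Ranger version and gene list. Between them, deviations from the condition means correlated across genes with r of 0.475 to 0.703 over the pairs of conditions. This correlation cannot tell the pool from the processing. As a pool was split over the conditions, p-values measure the spread between 2 replicates, in pool and processing together. The block was an alternative, as were other scalings, filters on low counts, DESeq2 1.42.0, the 4 libraries alone, each library left out in turn, other limits on UMIs and insulin share, and cells thinned to 5000 UMIs.

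Named genes are the key members of each list, up to 6 called members of a list with the largest changes and 1 direction in both pools, and the 15 largest rises and falls over all genes by fold (at 50 CPM or more) and by CPM; a few are not reported here. The members and the gene lists were chosen with earlier results of these data known. Ratios of genes with few untreated UMIs are given with a 95% counting interval, or against a floor of 3 UMIs; both cover counting error only.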

Additional observations from a re-analysis of the deposited data

Results flagged for a closer look

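Some genes are listed for only 1 replicate, since the gene lists of the matrices differ, so they were left out of the test and have no replicate check; those with at least 100 UMIs and a level at least 2-fold higher with cytokines are given here as raw CPM, UMIs per 1000000 UMIs of the summed β-cells. In replicate 1, *Mx1*, an interferon-induced antiviral GTPase, went from 0.49 to 7.25, *Gdap10* from 3.58 to 18.1, *Gm26722* from 0.49 to 6.03 and *Gm45351* from 1.07 to 3.82. In replicate 2, the small nucleolar RNA host genes *Snhg1* and *Snhg15* went from 37.3 to 99.3 and from 10.6 to 26.9, *2410006H16Rik* from 61.4 to 151, *1110038B12Rik* from 14.6 to 29.8 and *Gm20559* from 8.52 to 26.7. With 2 libraries a condition, no library could be tested as standing apart from its group.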

How the results depend on the processing

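Counts of called genes depended on the setting. The named genes were chosen in part for large changes called in the fit over all libraries, so their steadier calls follow in part from that choice. With total UMI scaling 1923 genes were higher, against 3000 with TMM. A mean of at least 10 CPM, which tests fewer genes, gave 1762 higher and 1779 lower, and cells thinned to 5000 UMIs, which hold fewer UMIs, gave 1905 and 1639. Over the fits that each left out a library the counts ran from 1928 to 2928 higher and from 1662 to 2649 lower, lowest without untreated replicate 1 (1928 and 1662) and next without cytokine replicate 1 (1986 and 1755). DESeq2 called 2744 higher and 2177 lower, the 4 libraries alone 2690 and 2653, and without barcodes carrying markers of other types 2433 and 2211. With the replicate number as a block, which pairs the libraries of a pool, 3997 were higher and 3788 lower, 5 of the 186 named genes changed their call (3 lost, 2 gained), and the lower genes exceeded the higher ones in median length by 4.3 kb in place of 5.0 kb. Of the named genes 181 passed the threshold, and 169 to 179 when a library was left out.

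The direction changed for 3 genes that the fit over all libraries did not call: with a library left out the log2 change of *Chga* ran from -0.424 to 0.0941 (0.0941 without untreated replicate 1, 0.0908 without cytokine replicate 2) and that of *Glp1r* from -7.70 to 3.58 (3.58 without untreated replicate 2), and *Kcnj11* was at -0.0478 with total UMI scaling. With total UMI scaling the majority of called members changed side in 5 of 55 gene lists, the chaperone, translocon, vesicle coat, dual specificity phosphatase and splicing lists. The majority also changed side in 3 lists with DESeq2, 3 at a mean of at least 10 CPM and 2 with thinned cells. Some lists changed side too when a library of the comparison was left out. The cause was not tested. In the 4 libraries 14552533 to 34665418 UMIs stood behind the sums, so a gene near 1 CPM rests on few UMIs. With 2 libraries a condition no exact permutation test could pass the threshold, and the fit borrows its spread from all genes and conditions.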
